A study of Mus musculus with 12 samples.

Results

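The transforming growth factor beta (TGF-β) ligands, their receptors and latent binding proteins, and the activin and inhibin genes were followed across 4 mouse lung adenocarcinoma cell lines. The 10 genes were Tgfb1, Tgfb2, Tgfb3, Ltbp1, Ltbp3, Tgfbr1, Tgfbr2, Inhba, Inha and Fst, of 18193 genes measured. They were taken by name, with every probe set annotated to that single symbol, which gave 25 of the 45037 probe sets tested. RNA was measured on 12 one-colour Affymetrix arrays, 3 for each of the lines KC1, KC2, KC3 and KC4. All 4 lines carry the same genotype, K-rasLA1/+; Cdkn1a-/-, on a background given as 127s. K-rasLA1 is a latent allele that becomes an active K-ras oncogene in scattered cells, and Cdkn1a encodes p21, which restrains the cell cycle. Tumour cells were isolated with the Cancer Cell Isolation Kit and kept in RPMI 1640 medium with FBS. The sources name 6 primary lung tumours and 4 mice as the origin and do not assign a line to any of them. KC1, KC2 and KC3 are labelled highly metastatic and KC4 poorly metastatic, and the study asked how the former differ from the latter. The poorly metastatic class has 1 line, so class and line cannot be told apart for KC4. No age, treatment or time is given for the cultures. The 3 arrays of a line are labelled biological replicates, and p-values measure the spread between such cultures of 1 line.

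TGF-β is secreted as a latent complex, in which the mature dimer stays bound to its propeptide and the propeptide to a latent TGF-β binding protein that anchors it in the matrix. Once released, the ligand binds the type II receptor, which recruits and phosphorylates the type I receptor, and this activates Smad2 and Smad3. Activins, dimers of inhibin beta subunits, reach the same Smads through activin receptors. Inhibin, a dimer of the alpha and a beta subunit, and follistatin, which binds activin directly, limit activin signalling. In lung epithelium and in carcinomas TGF-β is known both for growth arrest and for epithelial-mesenchymal transition.

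Signals are linear intensities, and log2 values were taken after signals under 16 were set to 16, called the floor here. A difference was called when limma's adjusted p was under 0.05, adjusted by the Benjamini-Hochberg method over all 45037 probe sets, and the log2 difference was at least 1. Each gene is described by its probe set with the highest mean. Signals of different probe sets are not comparable with each other, so levels are compared only between lines.

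The label of a carcinoma line was checked against marker genes. All 7 epithelial markers (Epcam, Cdh1, Krt8, Krt18, Krt19, Cldn4 and Ocln) had mean signals over 1000 in every line, with a summed signal of 60094 to 87850 per array. The sum was 60094 to 71787 in KC4, below the 77616 to 81855 of KC1 and the 74113 to 77142 of KC3, and it overlapped with the 70783 to 87850 of KC2. Within the list KC4 had the lowest mean of Epcam, Krt8, Krt18, Cldn4 and Ocln and the highest of Cdh1, with Krt19 between the other lines. Epcam averaged 6362 in KC4 and 9674 to 13687 in the other lines, and Cldn4 1268 against 3210 to 4128. Of 7 lung lineage markers, 0 reached 1000 in any line, and their summed signal was 335 to 728. Sftpb had the highest means, 219 to 303, followed by Sftpc at 99.6 to 117, and Napsa lay at or under 16 on every array. None of the 7 was bright, and the lung origin rests on the labels. The summed signal was 435 to 715 for 8 fibroblast markers, 355 to 547 for 5 endothelial markers and 453 to 679 for 5 leukocyte markers. KC4 overlapped with each other line in the fibroblast and endothelial sums, and with KC1 and KC3 in the leukocyte sum, in which KC2 was higher (636 to 679 against 453 to 578). Of the 8 fibroblast markers, only Pdgfrb had a mean at or under 16, in every line. Means under 100 were found for 6 of them in KC1, KC2 and KC3 and for 7 in KC4. Col1a2 averaged 170 to 194 and Pdgfra 96.4 to 148. The median signal of an array ran from 94.5 to 128, and 15.3% to 20% of probe sets lay at the floor. The 3 control probe sets for 18S rRNA stood apart in KC4. The 5-prime one averaged 3305 there, and 605, 451 and 414 in KC1, KC2 and KC3. The 3-prime one ran from 777 to 947 in KC4 and reached at most 643 elsewhere, and the middle one ran from 462 to 594 and reached at most 324 elsewhere. These controls and the epithelial sum move with the KC4 differences below, and their part in them was not tested. In these bulk cultures, fewer cells that make a transcript and less transcript per cell cannot be told apart.

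Of the 10 genes, 8 had an entry in the RefSeq promoter table (GRCm38.p6), and Tgfb3 and Fst were not among them. The 250 bases before the annotated start are shown for 1 ligand of each branch and for the binding protein, all of which differed between lines. Capitals mark every match to the 4 motifs searched on both strands. The GC box was searched as GGGCGG. The TATA motif was searched as TATAAA. The AP-1 motif was searched as TGANTCA. The Smad-binding element was searched as CAGACA. No printed match overlaps another.
Tgfb1, chr7:25686752-25687001, plus strand: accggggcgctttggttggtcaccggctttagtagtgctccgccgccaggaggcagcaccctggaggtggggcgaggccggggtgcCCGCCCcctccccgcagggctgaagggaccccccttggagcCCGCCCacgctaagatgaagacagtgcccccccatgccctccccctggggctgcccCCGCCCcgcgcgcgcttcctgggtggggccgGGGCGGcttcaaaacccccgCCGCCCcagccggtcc
Inhba, chr13:16011601-16011850, plus strand: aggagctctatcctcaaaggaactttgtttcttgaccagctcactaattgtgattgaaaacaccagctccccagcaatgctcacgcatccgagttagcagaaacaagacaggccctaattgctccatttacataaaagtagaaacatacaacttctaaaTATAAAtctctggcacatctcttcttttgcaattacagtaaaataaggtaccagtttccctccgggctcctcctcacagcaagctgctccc
Ltbp3, chr19:5740650-5740899, plus strand: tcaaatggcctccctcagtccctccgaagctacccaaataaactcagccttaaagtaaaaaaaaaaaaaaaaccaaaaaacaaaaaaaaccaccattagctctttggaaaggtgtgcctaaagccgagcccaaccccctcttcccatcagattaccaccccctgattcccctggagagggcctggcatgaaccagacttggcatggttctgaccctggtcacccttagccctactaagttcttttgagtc
The Tgfb1 window holds 5 GC boxes on either strand, the nearest 16 to 11 bases before the start, and a GC box occurs in 32.7% of all 32851 windows of this length. The Inhba window holds 1 TATA motif, 91 to 86 bases before the start, against 12.4% of windows with at least 1. The Ltbp3 window holds none of the 4. AP-1 letters occur in 6.75% of windows and the Smad element in 17.1%, and neither occurs in these 3. A match is a string of letters and not a measured binding site. Expression is the only readout of these promoters here.

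Over the 4 lines, 7 of the 10 genes were called, that is, the moderated F test passed and the line means spanned at least 1 on the log2 scale. The share over all genes was 18.6%. Tgfb1, Tgfb2, Tgfb3, Ltbp3, Inhba, Inha and Fst were called, and Ltbp1, Tgfbr1 and Tgfbr2 were not. By probe set the count was 11 of 25, against 16.1% of all probe sets. The median span of the line means was 1.47 over the 10 genes and 0.64 over all genes. The called genes were thus the 3 TGF-β ligands, 1 latent binding protein, both inhibin subunit genes and follistatin, and neither receptor was among them. The call of Tgfb2 was lost without KC2 replicate 2, KC4 replicate 2 or KC4 replicate 3 (adjusted p = 0.0625 for the last), with a floor of 64 and, at a span of 0.74, with a pseudocount of 16.

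**Figure D1:**
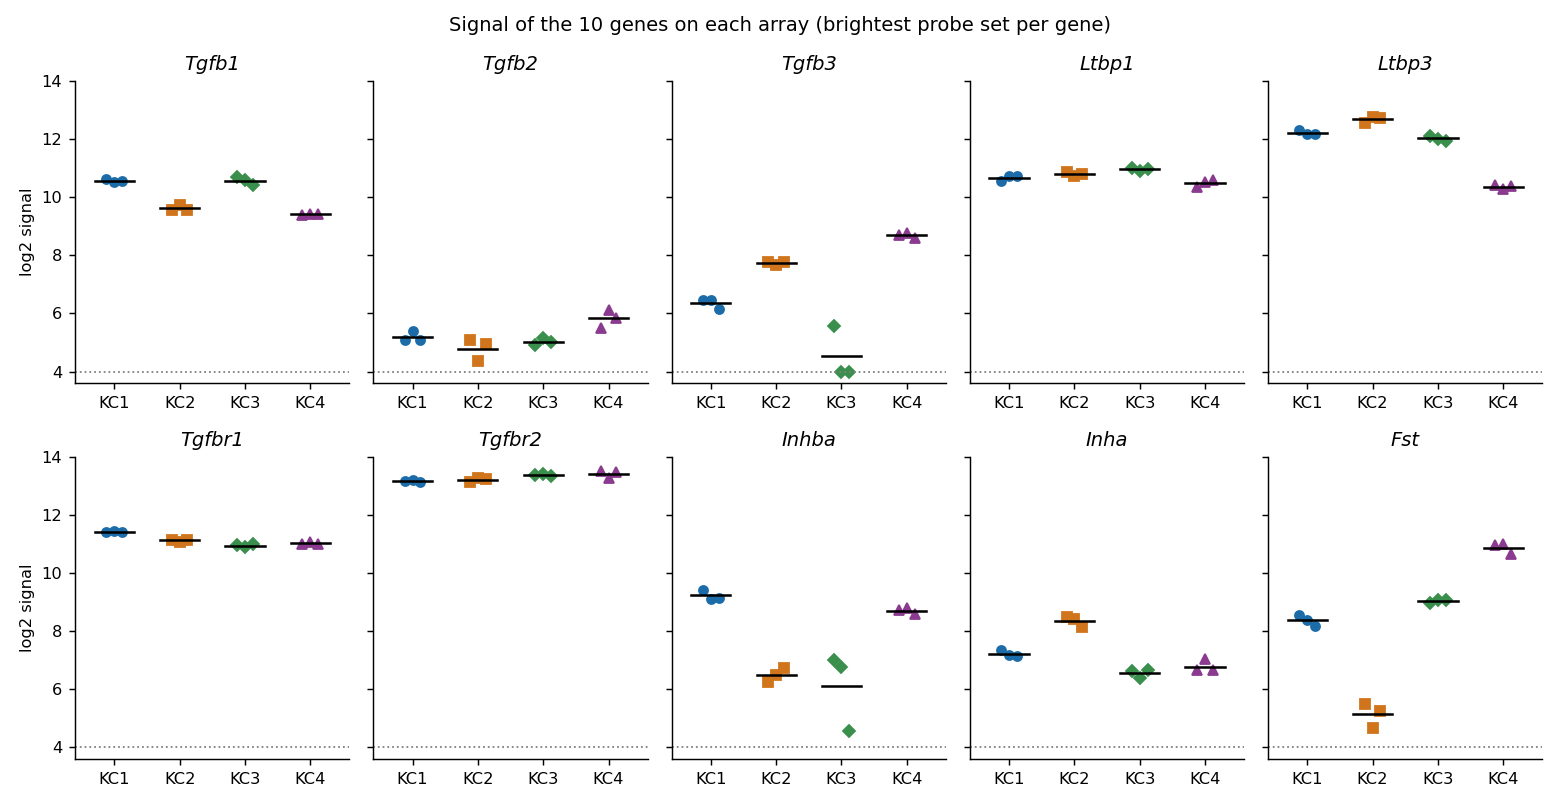
Log2 signal (vertical axis) of the brightest probe set of each of the 10 genes on every array; points are arrays, 3 per line, bars are line means and the dotted line is the floor at 4. Ltbp3 is lowest and Fst highest in KC4, Inha is highest in KC2, and Tgfb3 lies at the floor on 2 KC3 arrays, while Tgfbr2 stays between 8970 and 11600 in linear signal on all arrays.

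Among the ligands, Tgfb1, the most widely expressed TGF-β isoform, split the lines into 2 levels. Its signal was 1580, 1472 and 1513 in KC1 and 1661, 1561 and 1371 in KC3. It was 752, 859 and 755 in KC2 and 676, 679 and 693 in KC4. Every KC1 and KC3 array lay above every KC2 and KC4 array, and the KC1 and KC3 ranges overlapped. KC2 and KC4 lay close together without overlap. Tgfb1 was higher than in KC4 by 1.16 in KC1 (log2, SE 0.075, limma adjusted p = 1.14e-05) and by 1.16 in KC3 (adjusted p = 7.16e-06). KC2 lay 0.21 above KC4 (adjusted p = 0.0793) and was not called. KC1 minus KC2 was 0.95 (adjusted p = 4.37e-05) and KC2 minus KC3 was -0.96 (adjusted p = 1.52e-05), both just short of the minimum difference of 1. They reached it without KC2 replicate 2, at 1.01 and -1.02, and the second also without KC3 replicate 3 (-1.03) and with median centring (-1.20). The highly metastatic KC2 thus stood near KC4 in Tgfb1, and the mean of the 3 highly metastatic lines lay 0.84 above KC4 (adjusted p = 1.51e-05), which was not called. The second Tgfb1 probe set was dim, at 91.8 to 162, and was called in no comparison.

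Tgfb3, an isoform known for its part in palate and lung development, was measured by 1 probe set and spread the most among the ligands. Its signal was 418, 436 and 386 in KC4 and 218, 201 and 221 in KC2. KC1 gave 87.9, 89.2 and 71.0, and KC3 gave 47.6, 8.60 and 14.3, of which 2 lay under the floor. The order was KC4, KC2, KC1, KC3, with no overlap between neighbours. Tgfb3 was lower than in KC4 in KC1 (log2 difference -2.33, SE 0.37, limma adjusted p = 0.0021) and in KC3 (-4.16, adjusted p = 4.56e-05). The difference of KC2 from KC4, -0.95, was not called (adjusted p = 0.0955). With a floor of 64 it was the same size (SE 0.0868, limma adjusted p = 5.58e-05), short only of the minimum difference. KC2 minus KC3 was 3.21 (adjusted p = 0.000153), KC1 minus KC3 was 1.84 (adjusted p = 0.00542) and KC1 minus KC2 was -1.38 (adjusted p = 0.0305), all called. The KC3 values depend on where the floor is set. With a floor of 64, KC3 minus KC4 was -2.69 and KC2 minus KC3 was 1.74, both still called. KC1 minus KC3 was then 0.36 and no longer called, and with these lines fitted alone its adjusted p was 0.0676. The KC1 and KC2 call was lost on leaving out any 1 of their 6 arrays, with adjusted p-values from 0.0678 to 0.0965.

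Tgfb2, the third isoform, was dim in all lines. The signal was 45.5, 70.0 and 58.1 in KC4, 33.6, 42.5 and 34.0 in KC1, 33.7, 20.5 and 30.8 in KC2, and 29.9, 35.9 and 32.6 in KC3. All KC4 arrays were above all others, and the other lines overlapped. KC2 was called lower than KC4 (log2 difference -1.04, SE 0.21, limma adjusted p = 0.00577). That call was lost without KC2 replicate 2, at a difference of -0.82, and without KC4 replicate 2, at -0.89. It was also lost with a floor of 64 (-0.04), when 16 was added to every signal instead of the floor (-0.74) and with both lines fitted alone (adjusted p = 0.0556). The 3 other Tgfb2 probe sets reached at most 72.7, 40.3 and 32.1 and were not called.

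The latent binding proteins behaved differently from each other. Ltbp3, which binds the latent complex, was lower in KC4 than in each of the other 3 lines. Its signal was 1378, 1235 and 1325 in KC4. It was 5098, 4656 and 4625 in KC1, 5962, 6976 and 6851 in KC2, and 4442, 4128 and 3943 in KC3. Every array of the highly metastatic lines lay above every KC4 array. Ltbp3 was higher than in KC4 by 1.87 in KC1 (3.65-fold, SE 0.076, limma adjusted p = 6.56e-07), by 2.33 in KC2 (5.02-fold, adjusted p = 1.02e-07) and by 1.67 in KC3 (3.18-fold, adjusted p = 8.13e-07). Among the highly metastatic lines, KC2 minus KC3 was 0.66 (adjusted p = 0.000158) and KC1 minus KC2 was -0.46 (adjusted p = 0.00282), both short of a difference of 1. The 3 highly metastatic lines together lay 1.95 above KC4 (SE 0.062, adjusted p = 1.06e-07).

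All 4 Ltbp3 probe sets were called higher in each highly metastatic line than in KC4. Their differences ran from 1.55 to 1.94 in KC1, from 2.33 to 2.67 in KC2 and from 1.02 to 1.83 in KC3. The brightest has the ending s_at and another the ending x_at, marks of probe sets that can pick up related transcripts. The remaining pair are plain probe sets. One of these gave 2201, 2283 and 2136 in KC1 and 2726, 3591 and 3196 in KC2. The same probe set gave 2155, 2238 and 1774 in KC3 and 560, 724 and 468 in KC4, again without overlap between KC4 and the other lines. In 2 of the 4, KC2 was also called above KC3, by 1.46 and 1.41.

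**Figure D2:**
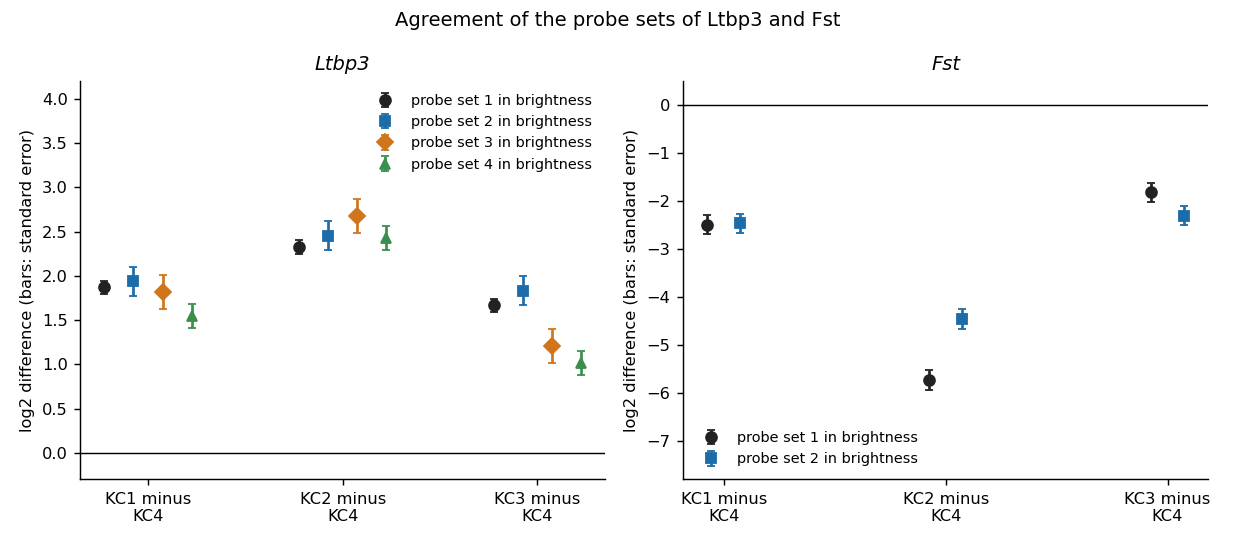
Log2 difference from KC4 (vertical axis) for each probe set of Ltbp3 (left) and Fst (right), numbered by brightness, in KC1, KC2 and KC3; bars are standard errors from limma. All 4 Ltbp3 probe sets lie above 1 and both Fst probe sets lie below 0 in each line.

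Ltbp1, the other latent binding protein, was not called in any comparison. KC4 gave signals of 1299, 1479 and 1532, KC1 of 1496, 1697 and 1685, KC2 of 1873, 1711 and 1776, and KC3 of 2039, 1923 and 2008. KC3 and KC4 did not overlap and differed by 0.47 (SE 0.072, limma adjusted p = 0.00123), the widest gap for this probe set. Its 2 other probe sets were dim, at 63.1 to 158 and 7.13 to 64.4. Their widest gaps were larger, -0.66 for KC2 minus KC3 (adjusted p = 0.127) and 1.37 for KC1 minus KC4 (adjusted p = 0.0574).

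The receptors varied little by their brightest probe sets. Tgfbr2, the type II receptor that binds the ligand, had a signal of 9232, 9391 and 9001 in KC1 and 8970, 9913 and 9659 in KC2. It had 10631, 10783 and 10258 in KC3 and 11609, 9913 and 11396 in KC4. KC1 lay below KC3 and KC4 without overlap, and KC2 overlapped with KC1 and KC4. The largest difference between line means of this probe set was that of KC1 minus KC4, -0.25 (SE 0.062, limma adjusted p = 0.0223). Tgfbr1, the type I receptor kinase, gave 2709, 2785 and 2718 in KC1, above all arrays of the other lines. The other lines gave 2258, 2160 and 2261 (KC2), 1990, 1891 and 2030 (KC3) and 2047, 2125 and 2044 (KC4). KC1 exceeded KC3 by 0.47 (SE 0.034, adjusted p = 1.24e-05) and KC4 by 0.40 (adjusted p = 5.29e-05). These gaps were larger than the spread between replicates and smaller than the minimum difference for a call. The 4 dimmer receptor probe sets were not called in any comparison, but some of their gaps were wider. A second Tgfbr2 probe set gave -0.70 for KC2 minus KC4 (limma adjusted p = 0.0202) and -0.67 for KC2 minus KC3 (0.0223), without overlap. A dimmer Tgfbr1 probe set gave 0.78 for KC1 minus KC2 (adjusted p = 0.0389).

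The activin genes differed along other lines of division. Inhba encodes the beta A subunit, 2 copies of which make activin A. Its signal was 690, 557 and 565 in KC1 and 421, 448 and 385 in KC4. KC2 gave 75.3, 89.9 and 107, whereas KC3 gave 127, 109 and 23.8. KC1 and KC4 were high and KC2 and KC3 low, with no overlap between the 2 pairs. One KC3 array was well below the other arrays of its line, and the standard error of each difference was 0.54. Inhba was lower than in KC4 in KC2 (log2 difference -2.22, limma adjusted p = 0.0137) and in KC3 (-2.60, adjusted p = 0.0069). Without that KC3 array the KC3 difference was -1.83 (adjusted p = 0.000132). It was higher in KC1 than in KC2 by 2.74 (adjusted p = 0.00718) and than in KC3 by 3.12 (adjusted p = 0.00245). KC1 lay above KC4 on all arrays, but the difference of 0.53 was not called (adjusted p = 0.623). Without the low KC3 array this difference had a standard error of 0.144 (limma adjusted p = 0.0401) and was still under the minimum difference. When KC3 and KC4 were fitted alone, their difference was no longer called (adjusted p = 0.0751). The second Inhba probe set lay at the floor on 11 of 12 arrays.

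Inha, the alpha subunit that turns a beta subunit into inhibin, stood out in KC2. Its signal there was 354, 340 and 279. It was 163, 146 and 140 in KC1, 97.6, 83.8 and 101 in KC3 and 100.2, 130 and 100.1 in KC4. KC2 did not overlap with any other line, KC1 lay above KC3 and KC4, and KC3 and KC4 overlapped. KC2 minus KC4 was 1.56 (SE 0.13, limma adjusted p = 2.98e-05), KC1 minus KC2 was -1.11 (adjusted p = 0.000473) and KC2 minus KC3 was 1.78 (adjusted p = 1.14e-05), all called. Within the 10 genes, KC2 thus joined a low Inhba signal with its highest Inha signal.

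Fst encodes follistatin, which binds activins with high affinity and covers the sites by which they reach their receptors. It spanned more than any other of the 10 genes. Its signal was 1978, 2027 and 1599 in KC4 and 503, 535 and 540 in KC3. It was 378, 330 and 287 in KC1 and 44.9, 25.0 and 38.4 in KC2. The order was KC4, KC3, KC1, KC2, and no neighbours overlapped. Fst was lower than in KC4 in every other line, with log2 differences of -2.49 in KC1 (SE 0.2, limma adjusted p = 4.55e-05), -5.73 in KC2 (adjusted p = 1.64e-07) and -1.82 in KC3 (adjusted p = 0.000193). KC2 was also lower than KC1 and KC3: KC1 minus KC2 was 3.23 (adjusted p = 1.17e-05) and KC2 minus KC3 was -3.90 (adjusted p = 1.29e-06). KC1 minus KC3 was -0.67 (adjusted p = 0.0404), under the minimum difference. KC2 was near the floor, and with a floor of 64 its difference from KC4 was -4.86, KC1 minus KC2 was 2.37 and KC2 minus KC3 was -3.04, all still called. The second probe set gave the same calls, with differences from KC4 of -2.47, -4.45 and -2.30. It did not separate KC1 from KC3, whose difference there was -0.17 (adjusted p = 0.681).

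**Figure D3:**
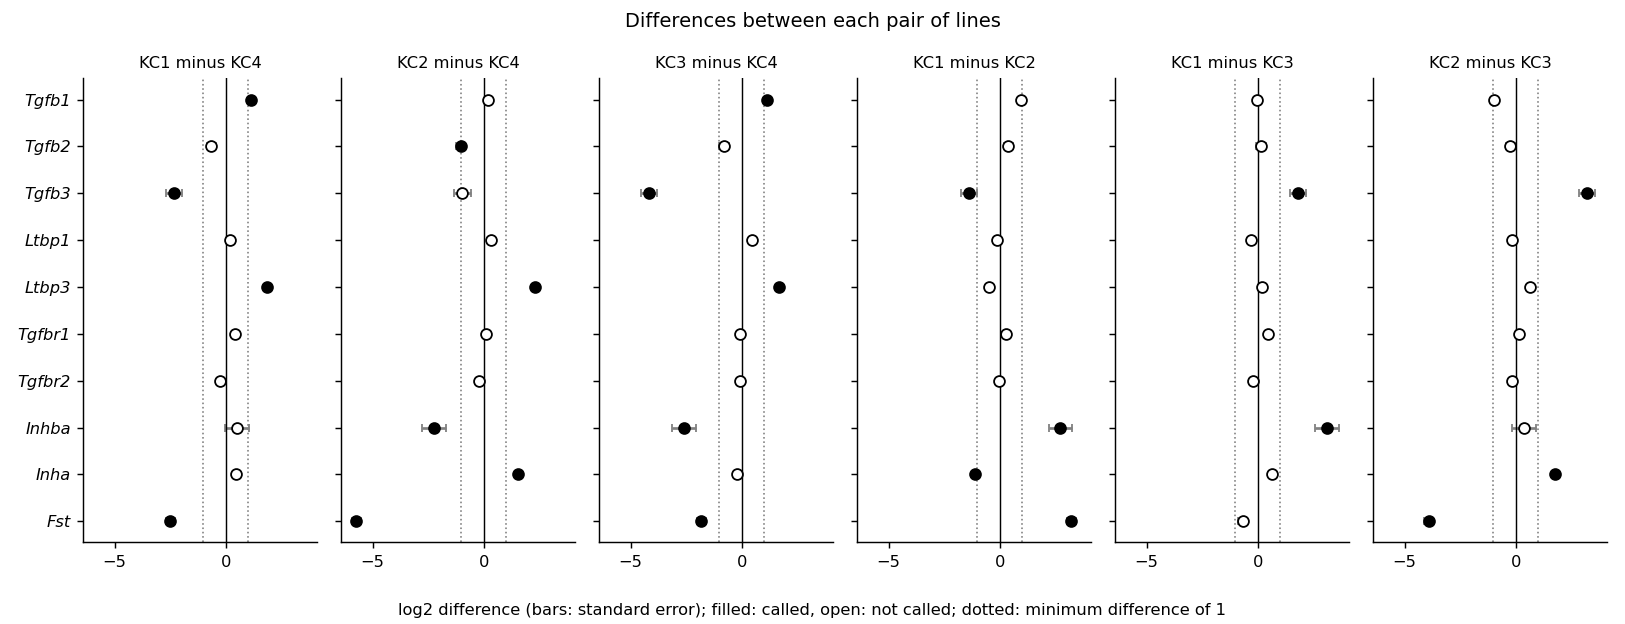
Log2 differences (horizontal axis) of the 10 genes in each of the 6 pairs of lines, with limma standard errors as bars; filled points were called and dotted lines mark the minimum difference of 1. Ltbp3 and Fst are filled in all 3 comparisons with KC4, while Ltbp1, Tgfbr1 and Tgfbr2 are open throughout.

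In the comparisons with KC4, 8 of 25 probe sets were called in KC1 (4.75% of all probe sets), 9 in KC2 (7.99%) and 9 in KC3 (6.7%). By gene, 4 of 10 were called in KC1 (5.36% of all genes), 5 in KC2 (9.31%) and 5 in KC3 (7.92%). These comparisons share the KC4 arrays and so are not independent of each other. Between highly metastatic lines, 5 probe sets were called between KC1 and KC2 (4.04%), 2 between KC1 and KC3 (7%) and 6 between KC2 and KC3 (9.42%). The 2 for KC1 and KC3 were Tgfb3 and Inhba, and that count was near the share over all probe sets. By gene, 4 were called between KC1 and KC2 (4.78%), 2 between KC1 and KC3 (8.01%) and 3 between KC2 and KC3 (10.7%). By the brightest probe set, the genes called among the highly metastatic lines were Tgfb3, Inhba, Inha and Fst, and 2 dimmer Ltbp3 probe sets were also called between KC2 and KC3.

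For the contrast of class, in which the average of the 3 highly metastatic lines was set against KC4, 4 of 10 genes were called (5.36% of all genes). Ltbp3 was higher (2.85% of all genes were called higher), and 3 genes were lower (2.51%). The latter were Tgfb3 (-2.48, limma adjusted p = 0.000311), Fst (-3.35, adjusted p = 1.49e-06) and Inhba (-1.43, adjusted p = 0.0457). Of the 10 genes, only Ltbp3 and Fst differed from KC4 in the same direction, past the threshold, in each of the 3 lines. The Inhba value averages KC1, which was above KC4, with KC2 and KC3, which were below it, and its call was lost without KC2 (adjusted p = 0.248) and, at -0.85, without KC3. Leaving out a line added 2 calls, Tgfb1 at 1.16 without KC2 and Inha at 1.01 without KC3. The Inhba call was also lost on leaving out any 1 of 9 arrays, those of KC1, KC2 and KC4, with adjusted p-values from 0.0631 to 0.141. It was kept without KC3 replicate 3, the low array of that line, at -1.17 (SE 0.12, limma adjusted p = 0.000258). A fit with the line as a random block used 1 correlation within lines (0.426), shared by all probe sets. KC4 is still 1 line there, so this fit does not make lines the unit of error. In it the brightest probe sets of Tgfb3 (limma adjusted p = 0.295), Inhba (0.863) and Fst (0.187) were not called. The second Fst probe set was (-3.07, adjusted p = 0.0386). Of the 4 Ltbp3 probe sets, the brightest (1.95, SE 0.196, adjusted p = 0.000584) and the next (2.08, adjusted p = 0.00319) were called, and the dimmer ones were not (adjusted p = 0.059 and 0.0637). By probe set the count of the class contrast was 8 of 25 (4.59% of all probe sets) and fell to 3 with that block.

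A line was taken as set apart by a gene when the gene was called against each other line in the same direction. KC4 was set apart by higher Fst and lower Ltbp3, against 1.58% of all genes. KC2 was set apart by higher Inha and lower Fst (1.81% of all genes) and KC3 by lower Tgfb3 (2.34%). No member set KC1 apart (0.846%).

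The rest of the activin branch was read from a list of ligands and antagonists, of which 2 of 11 measured genes were called over the 4 lines, near the share of 18.6% over all genes. Inhbb encodes the beta B subunit, of activin B. Its mean signal was 1375 ± 71.3 (SD, n = 3) in KC4, 673 ± 27.8 in KC1, 113 ± 13.7 in KC2 and 111 ± 8.78 in KC3. Inhbb was lower than in KC4 in each other line, with log2 differences of -1.03 in KC1 (limma adjusted p = 7.27e-05), -3.61 in KC2 (adjusted p = 2.25e-08) and -3.64 in KC3 (adjusted p = 3.12e-08). Its second probe set spanned 1.38 and was not called (adjusted p = 0.163). Fstl3, a follistatin-like antagonist, gave 428 ± 32.5 in KC4, 402 ± 22.5 in KC1, 116 ± 53.6 in KC2 and 98.1 ± 9.72 in KC3. Its log2 difference from KC4 was -2.00 in KC2 (adjusted p = 0.00118) and -2.13 in KC3 (adjusted p = 0.000978), both called, and -0.09 in KC1 (adjusted p = 0.958). Inhba, Inhbb and Fstl3 were thus all called lower in KC2 and KC3 than in KC1 and in KC4, whereas Fst was low in KC2 and intermediate in KC1 and KC3.

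**Figure D4:**
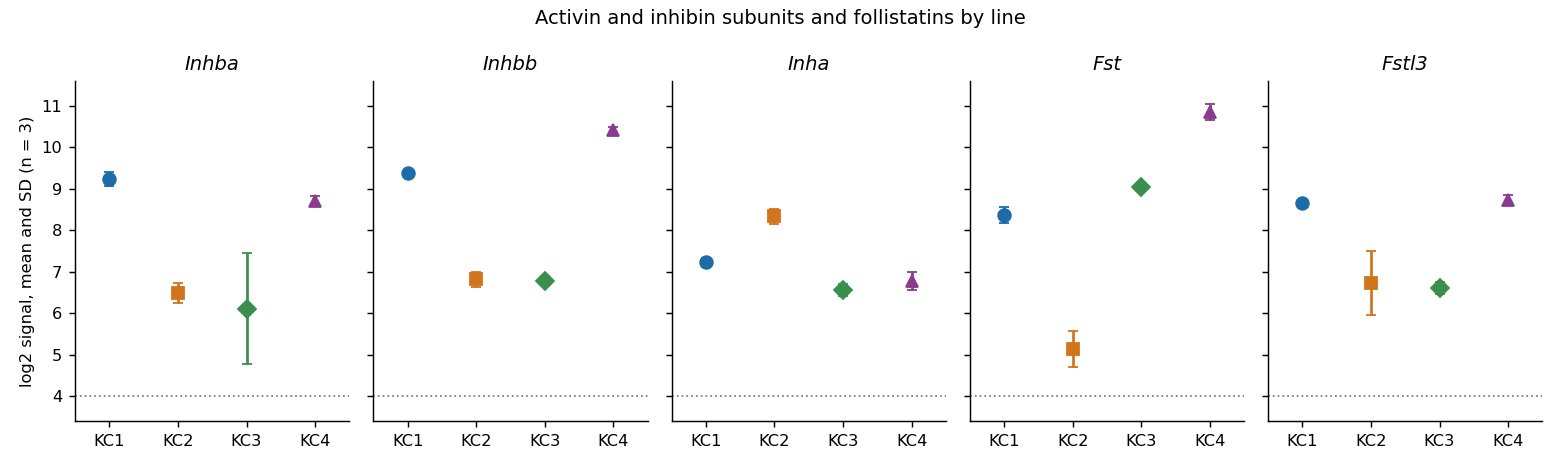
Log2 signal (vertical axis) of the activin and inhibin subunits Inhba, Inhbb and Inha and the antagonists Fst and Fstl3 in each line; points are means, bars the SD of 3 arrays and the dotted line the floor at 4. Inhba, Inhbb and Fstl3 are high in KC1 and KC4 and low in KC2 and KC3, and Inha is highest in KC2.

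Other receptors and co-receptors held 3 called genes of 13 measured (18.6% of all genes), each an activin receptor. Acvr2b, a type II receptor, had mean signals of 336, 417 and 335 in KC1, KC2 and KC3 and 137 in KC4. It was higher than in KC4 by 1.31 in KC1 (limma adjusted p = 6.28e-05), 1.62 in KC2 (8.34e-06) and 1.30 in KC3 (4.07e-05). Acvr1b, the type I activin receptor, gave 1456, 1449, 769 and 667 in KC1, KC2, KC3 and KC4. Acvr2a, the other type II receptor, gave 738, 673, 1359 and 916, and its call was lost without KC3 replicate 3, where the span was 0.9968, with a pseudocount of 16 (0.9959) and with quantile normalization (0.9712). The other probe sets of these 3 genes were not called. Of the genes of the latent complex, matrix storage and activation, 5 of 18 measured were called (18.6% of all genes). Bgn, the matrix proteoglycan biglycan, had a mean signal of 143 in KC3 against 4980, 10510 and 10739 in KC1, KC2 and KC4. Mmp14, a membrane metalloproteinase that can release latent TGF-β, gave 162 in KC3 against 501 in KC1, 2735 in KC2 and 2507 in KC4. Thbs1, thrombospondin, an activator of the latent complex, gave 2008, 3180, 1223 and 2055. Itgb6, the beta subunit of an activating integrin, gave 65.1, 133, 65.9 and 159.

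Of the Smad transducers and regulators, 5 of 22 measured were called (18.6% of all genes), and 11 after median centring (21% of all genes). Smad2, Smad3, Smad4 and Smad7 were not called, with spans of 0.57, 0.93, 0.25 and 0.89. They passed the moderated F test (limma adjusted p = 0.000365, 5.72e-05, 0.000434 and 6.05e-05) and missed only the minimum span. Dab2, an adaptor of receptor trafficking, had mean signals of 818 in KC4 and 116, 171 and 51.5 in KC1, KC2 and KC3. Pmepa1, an inhibitor that TGF-β itself induces, gave 1129 in KC2 and 2557, 3578 and 3590 in KC1, KC3 and KC4, with a KC2 minus KC4 difference of -1.68 (limma adjusted p = 2.55e-06). Nedd4l, a ubiquitin ligase for activated Smads, gave 798, 871, 433 and 305 in KC1 to KC4, and Usp15, a deubiquitinase of the pathway, gave 1090, 722, 2003 and 1314.

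Of the target genes, 8 of 18 measured were called over the 4 lines (18.6% of all genes), with a median span of 1.02 against 0.64 over all genes. KC2 was the lowest line for 5 of the 8, namely Snai2, Timp1, Fn1, Ccn2 and Junb, and KC1, KC3 and KC4 for 1 each. How often KC2 was lowest among all called genes was not counted, so this number has no background. Against KC4, 5 of the 18 were called lower in KC2 (4.39% of all genes) and 2 higher (4.92%). Snai2, a repressor of epithelial genes, had a mean signal of 17.8 in KC2 against 906, 1618 and 478 in KC1, KC3 and KC4. Fn1, fibronectin, gave 2027 in KC2 against 6302, 4942 and 4953, and Timp1, a metalloproteinase inhibitor, 884 against 1645, 3337 and 4042. Cdkn2b, the cyclin-dependent kinase inhibitor p15, had the opposite pattern to Inhba among the lines. Its mean signal was 1459 in KC2 and 1449 in KC3 but 17.7 in KC1 and 20.5 in KC4, with 2 KC1 arrays and 1 KC4 array at the floor. Over the 5 lists 23 of 82 genes were called, against 18.6% of all genes. These 23 genes had 34 further probe sets, of which 19 were called and 15 were not. The called ones did not all keep the highest and lowest line. Called further Usp15 probe sets had log2 means of 7.44, 8.29 and 7.69 in KC4, above 7.06, 7.89 and 7.24 in KC3. That of Itgb6 was highest in KC2 (6.80, against 6.05 in KC4). The highest or lowest line also changed in called further probe sets of Mmp14, Pmepa1, Dab2 and Nedd4l.

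**Figure D5:**
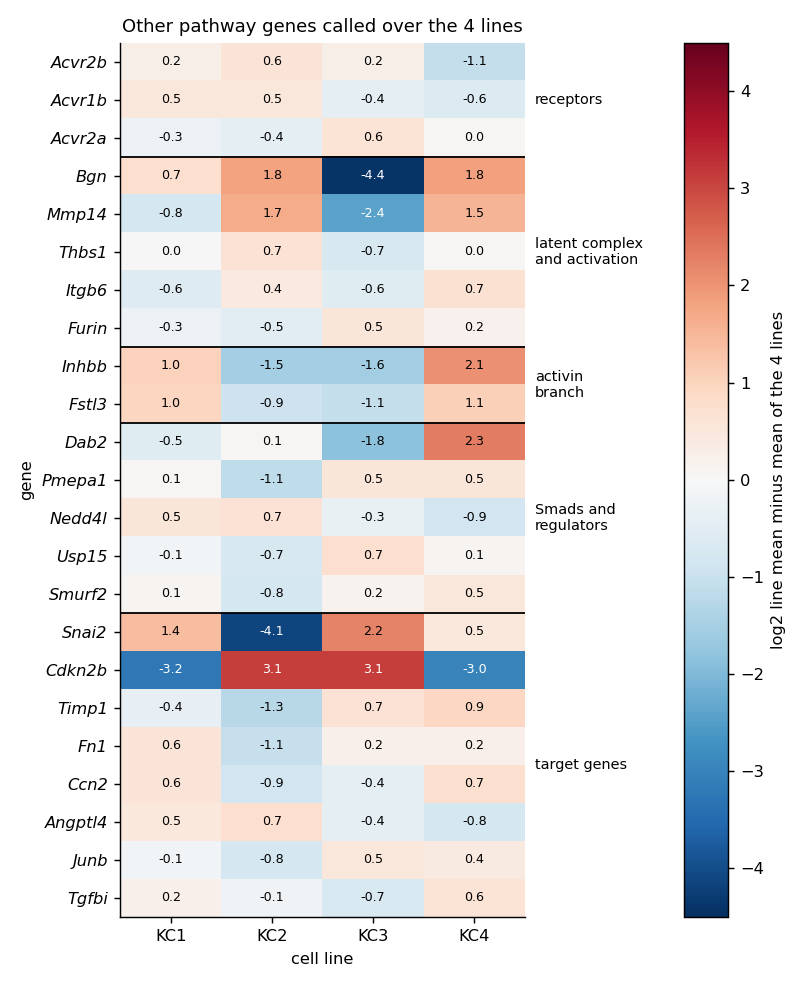
Line mean minus the mean of the 4 lines (log2, colour and printed value) for the 23 called genes of the 5 pathway lists; rows are genes and columns the lines. Bgn and Mmp14 are lowest in KC3, Snai2 is lowest in KC2, and Cdkn2b is high in KC2 and KC3.

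The genes with the most similar pattern were found for the 4 members whose line means spanned at least 2. Likeness was the root mean square difference of centred log2 values over the 12 arrays, searched among 1024 genes with at least that span. Nearest to Ltbp3 were Plau, the urokinase protease (0.12), Pate14 (0.22) and Cldn23, a claudin (0.22). Tgfb3 was nearest to Adgrf5 (0.44), the actin bundler Fscn1 (0.52) and the small heat shock protein Cryab (0.59). Nearest to Inhba were Tdrkh (0.62), Zfp612 (0.63) and Zfp9 (0.63), and nearest to Fst were the sulfatase Sulf2 (0.71), Mreg (0.71) and Chsy1 (0.73). Zfp612 lay at the floor on 5 of the 12 arrays and Tdrkh on 1. The likeness values are not scaled for a gene's span or for the spread between its replicates, so the members are not ranked by them. The points of each comparison share arrays and lines, so these values describe likeness over 4 lines.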

How the data were processed

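The authors deposited a table of linear intensity values with a column for each of the 12 arrays. Software and background correction are not given in the sources used here. The 2% trimmed mean lay between 500.002 and 500.003 on each array, the mark of scaling to a common target, which hides changes in total mRNA content. The 64 control probe sets were left out. Signals under 16 were set to 16 before log2. The platform annotation named 1 gene for 34945 probe sets and several for 932, and 9160 were not in it. Of the first, 34741 matched a RefSeq gene (GRCm38.p6). All 45037 probe sets were fitted with limma 3.58.1 in R 4.3.3 (lmFit, eBayes, 1 coefficient per line, 12 arrays). Tests were adjusted by the Benjamini-Hochberg method within each comparison. The fit was tested on simulated data. With 3 arrays a line, precision is limited: the SD within a line had a median of 0.41 (log2) for probe sets with a mean under 6, 0.29 from 6 to 8, 0.15 from 8 to 10 and 0.099 above.

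Named were all 10 genes, up to 4 called genes per pathway list with the largest span, and the 3 nearest genes of each member with a span of at least 2. Other named genes were chosen after their values were seen. Members and lists were chosen with earlier results of these data known, so no list carries a test. Some listed pathway genes were not analysed here. Motifs were counted in Python 3.11.15, and figures drawn with matplotlib 3.10.9. Alternatives covered the floor, a pseudocount, 2 normalizations, dim probe sets, 1 probe set per gene, the minimum difference, the prior, a replicate block, the line as a random block, pairs of lines fitted alone, and leaving out each array or line.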

Additional observations from a re-analysis of the deposited data

How the results depend on the processing

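Of the values whose sign turned, 0 were called before or after. They were Inhba in KC2 minus KC3 (-0.09855 with a floor of 64, and -0.3915 to 0.8187 on leaving out 1 array), Tgfb1 in KC1 minus KC3 (0.04203 with quantile normalization, and -0.08214 to 0.05656 on leaving out 1 array) and Tgfb2 in KC1 minus KC3 (-0.0669 with quantile normalization, -0.04763 with median centring). With median centring they were also Tgfbr1 (0.1042) and Tgfbr2 (0.1243) in KC3 minus KC4, Ltbp3 in KC1 minus KC3 (-0.00552) and Tgfbr1 in KC2 minus KC3 (-0.06496). Counts of called probe sets stayed within 1.5 times under a pseudocount, quantile normalization, the dimmer part left out and a trended robust prior. With a floor of 64, and with the pair fitted alone, 1 probe set was called between KC1 and KC3. With 1 probe set per gene, the counts were 4, 5 and 5 for KC1, KC2 and KC3 against KC4, 3 for KC2 and KC3, 4 for the class contrast and 7 over the lines, of 10 tested in place of 25. With no minimum difference they were 11 for KC1 and KC2, 9 for KC1 and KC3, 11 for KC2 and KC3 and 14 for the class contrast, with 6 other receptors and 19 Smad genes called over the lines. With the line as a random block (consensus correlation 0.426), 3 member probe sets were called in the class contrast, and 508 in place of 2067 of all probe sets. Median centring gave 11 Smad genes. It moved the median of all probe sets to 0.14 for KC3 minus KC4, -0.19 for KC1 minus KC3 and -0.17 for KC2 minus KC3. The share of all calls that were higher went from 40.9% to 58.7%, from 68.4% to 46.4% and from 57.8% to 35.1%. Leaving out 1 array gave 8 to 9 calls for KC1 and KC4, 8 to 9 for KC2 and KC4, 7 to 9 for KC3 and KC4, 4 to 5 for KC1 and KC2, 2 for KC1 and KC3, 6 to 7 for KC2 and KC3, 7 to 8 for the class and 10 to 11 over the lines. The lists gave 5 to 7 (Smad), 5 to 7 (latent complex), 2 (activin branch), 2 to 3 (receptors) and 8 to 9 (targets). Same-numbered arrays did not pair: the correlations of their deviations ran from -0.12 to 0.0879 over 18 pairs. With the replicate number as a block, 8, 9, 9, 5, 2 and 6 member probe sets were called in the pairs of lines, 7 in the class contrast and 11 over the lines, and the class call of Inhba was lost (adjusted p = 0.0649). Quantile normalization ended the calls of Tgfb3 between KC1 and KC2 (adjusted p = 0.0618) of Inhba in the class contrast (0.063) and of Acvr2a over the lines (span 0.9712), and median centring that of Inhba (0.0577). The cause of these shifts was not tested. Signals near the floor limit Tgfb2, Tgfb3 in KC3 and Fst in KC2, and a low KC3 array (signal 23.8) limits Inhba.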
